A study of Mus musculus with 12 samples.

Results

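The genes described here were p53 (Trp53 in the mouse) and 9 genes that act with it after DNA damage: Mdm2, Cdkn1a, Cdkn2a, Ccng1, Gadd45a, Sesn2, Bax, Bbc3 and Phlda3. These 10 genes were chosen by name, as textbook p53 targets and partners in a tissue exposed to a DNA-damaging carcinogen, and the rule that lists them uses no measured value. Earlier results of these data were known when the choice was made. All 10 were among the 32498 named genes of the expression files and among the 16847 that averaged 0.1 FPKM or more, the filter below which genes were not tested. FPKM is the number of fragments per exon length and per library size, a scale on which levels of genes of different length can be compared.

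The study asked what gallic acid (GA), a plant phenolic acid, does during chemically induced oral carcinogenesis. C57BL/6 mice, bought at 5 weeks of age, drank 4-nitroquinoline 1-oxide (4NQO), a carcinogen that forms bulky DNA adducts, at 100 µg/mL for 16 weeks in both groups. From week 4 until sacrifice they were gavaged 5 times per week with GA at 100 mg/kg (6 libraries) or with its vehicle, a methyl cellulose and Tween solution (6 libraries). Tongue tissue, labelled as tumor and tumor-associated tissue, was sequenced in bulk, with no group that was spared 4NQO, so the levels below cannot be set against undamaged tongue. The labels number the libraries within each group without identifying animals, so p-values measure the spread between these libraries only.

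p53 is a transcription factor that is held at low levels by the ubiquitin ligase MDM2 and is stabilised, mostly at the protein level, when DNA damage kinases modify it. Stabilised p53 binds response elements in its target genes and raises transcripts that stop the cell cycle, repair DNA or start apoptosis, and it also raises Mdm2, which closes a feedback loop. In squamous epithelium of the head and neck, the loss of p53 and of the CDKN2A locus are among the most frequent changes on the way to carcinoma.

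The element that p53 reads is made of a pair of decamers, each with a conserved core of C, any A or T pair, and G. The bases around the transcription starts of the members were searched for it on both strands, from 250 before to 50 after each start, in RefSeq promoters of build GRCm38.p6. All 10 members had at least 1 of these 300-base windows, 14 in all. The 20-base p53 response element, with the pair of decamers in direct contact and the C and G of both cores intact, was matched with at most 3 mismatches at the other positions in 4 members. They are shown as matches of letters to the element, each 5′ to 3′ on the strand of its gene, with the 4-base cores in capitals.
Cdkn1a, chr17:29090928-29090947, plus strand: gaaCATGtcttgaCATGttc
Ccng1, chr11:40755462-40755481, minus strand: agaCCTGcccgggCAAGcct
Bbc3, chr7:16309486-16309505, plus strand: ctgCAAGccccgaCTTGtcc
Trp53, chr11:69580284-69580303, plus strand: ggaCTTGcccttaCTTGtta

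The Cdkn1a and Ccng1 matches each had 1 mismatch to the element, and those of Bbc3 and Trp53 had 3. The first base of the match lay 51 bases before the start in Cdkn1a, at the more distal of its 2 annotated starts, and 195, 97 and 75 bases before it in Ccng1, Bbc3 and Trp53. At 1 mismatch or fewer, 22 of all 32851 promoter windows (0.0670%) held a match, and at 3 or fewer 453 (1.38%). Of 28 other p53 targets with a window, 6 held a match with at most 3 mismatches, and 2 of these, Rps27l and Gtse1, had at most 1. A match describes letters only, and p53 binding was not measured. For Mdm2, Cdkn2a, Gadd45a, Sesn2, Bax and Phlda3 these letters were not in the windows, and elements in introns or farther away were not searched.

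Library totals ranged from 18040161 to 21770346 reads with vehicle and from 21237167 to 25192497 with GA, and members were covered by 39 to 8555 reads per library. Keratinocyte keratins were abundant in every library, and skeletal muscle genes were present too, so the tissue was not epithelium alone. Vehicle libraries 3 and 5 and GA library 2 carried gland transcripts, with Lipf, a lipase of the tongue glands, at 20090, 8765 and 25476 FPKM, and the other 9 at most at 0.508 FPKM. Y-linked transcripts were present in vehicle libraries 1 to 4 and GA library 1 and were at 0 in the other 7, which had Xist, so the groups differed in the make-up of sexes. Of the keratinocyte markers 13 of 14 had lower means on the log2 scale with GA, and of the skeletal muscle markers 9 of 12 had higher ones. The keratinocyte score, the mean log2 level of these markers, ranged from 8.95 to 9.89 with vehicle and from 8.88 to 9.77 with GA, and the muscle score from 5.64 to 8.92 and from 6.33 to 8.51. Beyond the values given below, the part of these differences in the results for the members was not tested.

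Levels of the 10 genes spanned from 2.24 to 104 scaled FPKM on average. Phlda3, a lipid-binding inhibitor of AKT, was the most abundant transcript, with a mean of 104 scaled FPKM over the 12 libraries, followed by the cell cycle inhibitor Cdkn1a at 84.5 and the cyclin G gene Ccng1 at 55.5. Bax stood at 20.9, Trp53 at 16.0, Gadd45a at 10.5, Mdm2 at 8.76, Cdkn2a at 7.86, Sesn2 at 4.07 and Bbc3 at 2.24. This placed Phlda3 above 97.5% of all genes tested, those that averaged 0.1 FPKM or more, and Bbc3 above 41.1%. Neighbours in this order were not always separated. Phlda3 exceeded Cdkn1a in 8 of 12 libraries, Mdm2 exceeded Cdkn2a in 9, and Cdkn2a exceeded Sesn2 in 9. Bax exceeded Trp53 in 10 of 12, as Trp53 did Gadd45a and Gadd45a did Mdm2. Ccng1 was above Bax and Sesn2 above Bbc3 in all 12, and Cdkn1a was above Ccng1 in 11.

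**Figure D1:**
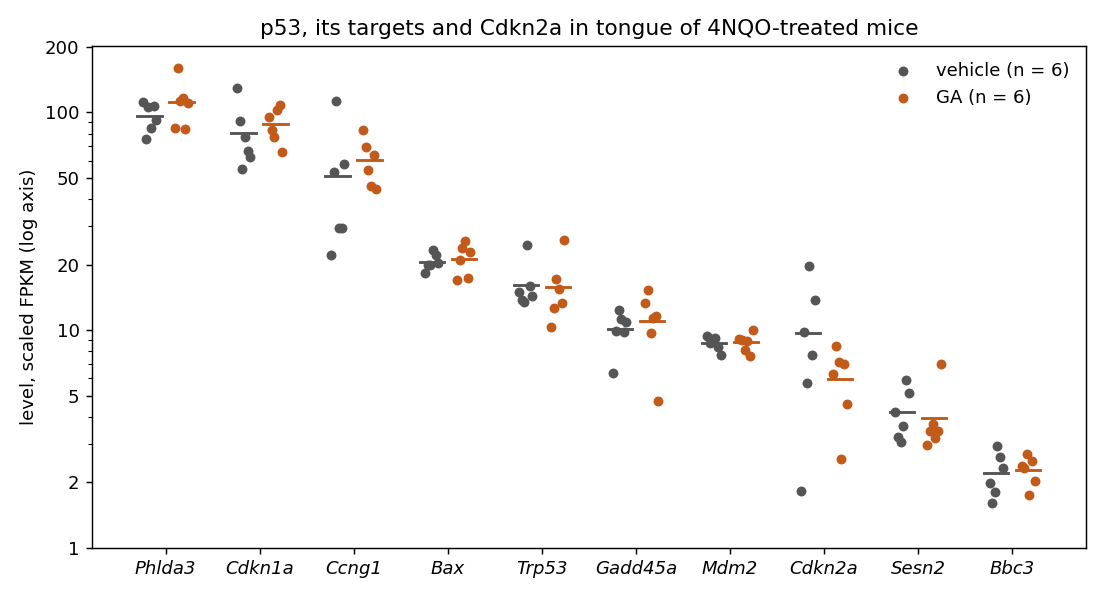
Level of each of the 10 genes in every library, in scaled FPKM on a log axis, for vehicle (grey, n = 6) and GA (orange, n = 6), with a bar at each group mean. The points of both groups overlap for every gene, and the vehicle points of Cdkn2a (1.82 to 19.7) and Ccng1 (22.2 to 113) are the most widely spread.

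The genes differed in how far they varied between tongues. Cdkn2a had the widest spread, with its highest library 10.8 times its lowest and an SD of 0.92 on the log2 scale, larger than that of 91.9% of the genes that averaged 1 FPKM or more. Ccng1 came next, with a ratio of 5.07 and an SD of 0.67, larger than in 84.3% of genes. Gadd45a varied 3.22-fold and Trp53 2.53-fold. At the other end, Mdm2 varied 1.33-fold, with an SD of 0.12 that exceeded that of 2.85% of genes, and Bax 1.52-fold (18.7% of genes). Mdm2, the transcript that carries the p53 feedback, was thus among the steadiest transcripts of these tongues. Its counterpart upstream, Cdkn2a, which encodes the MDM2 inhibitor ARF beside the kinase inhibitor INK4A, was among the least steady.

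None of the 10 genes was called between GA and vehicle in limma. The limits were those of the study, an adjusted p below 0.1 together with a log2 fold change of 0.58 or more in either direction. The study applied them with another test, edgeR after counting reads per gene, and reported significant genes. In limma on FPKM, 0 of all 16847 genes were called (0%). An unadjusted p below 0.05 was met by 364 (2.16%), 188 higher (1.12%) and 176 lower (1.04%) with GA. A p below 0.05 in an exact permutation test was found for 406 genes (2.41%), and 328 (1.95%) had an unadjusted p below 0.1 together with the fold limit. Of the members 0 met any of these limits. The adjusted p was 0.999961 for each of the 10 genes in limma, so it is not repeated below, and the exact permutation p of single genes given below is two-sided and not adjusted. Vehicle and GA libraries overlapped for all 10 members, while among all genes 11 (0.0653%) did not overlap. The log2 fold change was above 0 for 7 of 10 members and for 8584 (51%) of all genes, and its median was 0.04 over the members and 0.0042 over all genes.

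**Figure D2:**
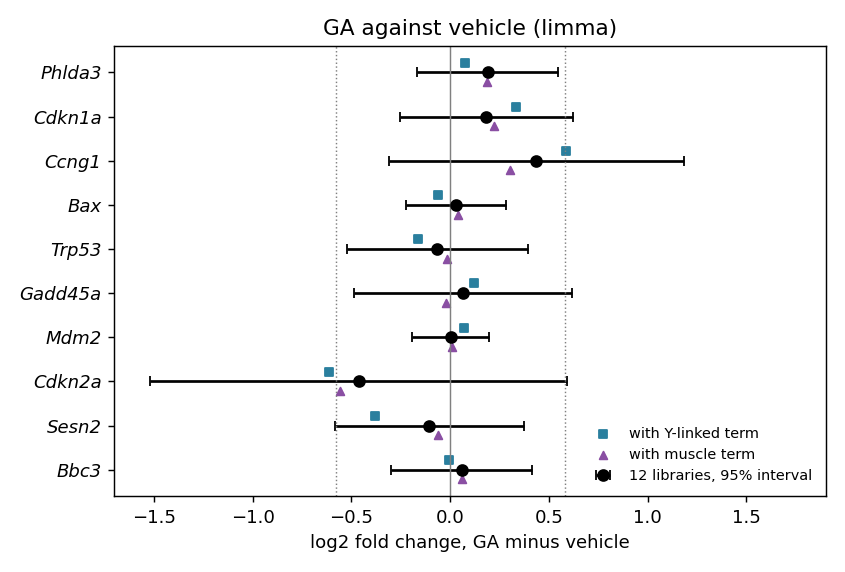
Log2 fold change of GA minus vehicle for each gene, with the estimate from all 12 libraries and its 95% interval in limma (black circles and bars), the estimate with a covariate for Y-linked reads (blue squares) and that with the muscle score as a covariate (purple triangles). Dotted lines mark 0.58 on either side, and every interval includes 0.

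Trp53 (chromosome 11 of GRCm38, 69580359 to 69591873, plus strand) ranged with vehicle from 13.5 to 24.5 scaled FPKM with a median of 14.6, and with GA from 10.3 to 25.96 with a median of 14.4. Each group held 1 library well above its others, vehicle 4 at 24.5 and GA 6 at 25.96, and the remaining 10 lay between 10.3 and 17.2. Means of vehicle and GA were 16.2 ± 4.19 and 15.8 ± 5.52 (mean ± SD, n = 6 in either group, as for all means below). The log2 fold change was -0.06 (SE 0.21, 95% interval -0.52 to 0.39, exact permutation p = 0.784). The sign rested on single libraries, since the estimate was 0.06 without vehicle library 4 and -0.22 without GA library 6. Among the 7 libraries that lacked Y-linked reads it was 0.11.

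Mdm2 (chromosome 10, 117688875 to 117710758, minus strand), the ubiquitin ligase that degrades p53 and is itself raised by it, lay between 7.67 and 9.40 scaled FPKM with vehicle (median 8.90) and between 7.56 and 10.03 with GA (median 8.93). No library of either group stood apart. Means were 8.74 ± 0.648 and 8.77 ± 0.851, and the log2 fold change was 0.0021 (SE 0.09, 95% interval -0.19 to 0.20, exact permutation p = 0.981). This was the narrowest interval among the members, and it left out changes of 0.58 in either direction. Mdm4, the MDM2 relative that blocks p53 transcription activity, was at 3.77 ± 0.7504 with vehicle and 4.397 ± 0.719 with GA (log2 fold change 0.22, SE 0.15).

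Among the genes that arrest the cell cycle, Cdkn1a (chromosome 17, 29090976 to 29100727, plus strand), which encodes the cyclin-dependent kinase inhibitor p21, ranged with vehicle from 55.2 to 130.2 scaled FPKM with a median of 71.5. With GA it ranged from 65.7 to 108 with a median of 89.3. The GA libraries lay within the vehicle range, and 5 of 6 were above the vehicle median. Means were 80.4 ± 27.5 and 88.7 ± 16.2, and the log2 fold change was 0.18 (SE 0.20, 95% interval -0.25 to 0.62, exact permutation p = 0.409). The estimate was 0.33 without vehicle library 1, 0.0876 without vehicle library 3 and 0.0250 without the gland libraries, and it was 0.42 among the 7 libraries that lacked Y-linked reads. In bulk tissue, fewer cells of a type and less RNA per cell cannot be told apart, and this holds for every level given here. Of the exon bases of Cdkn1a 7.68% are shared with an opposite-strand gene, and whether reads were counted by strand is not given in the sources used here.

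Ccng1 (chromosome 11, 40748552 to 40755311, minus strand), a cyclin that recruits a phosphatase to MDM2, had the largest positive estimate of the 10. With vehicle it ranged from 22.2 to 113 scaled FPKM with a median of 41.4, and with GA from 44.3 to 83.4 with a median of 59.3. All 6 GA libraries lay above the vehicle median, but they also lay inside the vehicle range, because vehicle library 3, at 113, was the highest of all 12. Means were 50.8 ± 33.5 and 60.3 ± 14.96, and the log2 fold change was 0.44 (SE 0.34, 95% interval -0.31 to 1.18, exact permutation p = 0.281). Vehicle library 3 is a gland library and also had the highest muscle score, 8.92. Without it the estimate was 0.71 (SE 0.26), with an adjusted p of 0.843 in limma. Without vehicle library 1, the lowest of the 12, it was 0.24. With the muscle score as a covariate it was 0.30, with the keratinocyte score 0.05 and with the Y-linked term 0.59, and among the 7 libraries that lacked Y-linked reads 0.41.

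Gadd45a (chromosome 6, 67035096 to 67037457, minus strand), a stress sensor that inhibits CDK1 and takes part in DNA repair and demethylation, ranged with vehicle from 6.35 to 12.4 scaled FPKM with a median of 10.4. With GA it ranged from 4.73 to 15.2 with a median of 11.5. The lowest libraries were vehicle 1 and GA 6, and the other 10 lay at 9.66 or above. Means were 10.1 ± 2.07 and 10.99 ± 3.61, and the log2 fold change was 0.06 (SE 0.25, 95% interval -0.49 to 0.61, exact permutation p = 0.801). The estimate was 0.29 without GA library 6 and -0.06 without vehicle library 1. It was -0.23 with the keratinocyte score as a covariate. Of its exon bases 19.1% overlap E230016M11Rik on the other strand, so part of its reads could belong to that transcript.

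Cdkn2a (chromosome 4, 89274471 to 89294653, minus strand) had the largest negative estimate. It encodes INK4A, an inhibitor of CDK4 and CDK6, and ARF, which sequesters MDM2 and so stabilises p53, from separate starts, and a value per gene cannot tell these transcripts apart. With vehicle it ranged from 1.82 to 19.7 scaled FPKM with a median of 8.72, and with GA from 2.55 to 8.42 with a median of 6.62. All 6 GA libraries lay below the vehicle median, and both extremes of the 12 libraries were vehicle ones, library 1 at 1.82 and library 4 at 19.7. Counts behind these values were low, from 39 to 529 reads. Means were 9.74 ± 6.30 and 5.98 ± 2.10, and the log2 fold change was -0.46 (SE 0.49, 95% interval -1.52 to 0.59, exact permutation p = 0.416). The estimate was -0.87 without vehicle library 1 (SE 0.36, adjusted p = 1.00 in limma), and -0.20 without vehicle library 4. It was -0.90 among the 7 libraries that lacked Y-linked reads and -0.61 with the Y-linked term. With the neutrophil score as a covariate it was -0.19, and 11 of 11 neutrophil markers had lower means on the log2 scale with GA. The neutrophil score ranged from 0.306 to 4.47 with vehicle and from 0.104 to 2.94 with GA. Cdkn2b, the neighbouring gene of the same locus that encodes INK4B, was at 10.9 ± 3.21 with vehicle and 9.71 ± 1.58 with GA (log2 fold change -0.13).

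Of the genes that promote apoptosis, Bax (chromosome 7, 45461697 to 45466898, minus strand), whose protein permeabilises the mitochondrial membrane, ranged with vehicle from 18.3 to 23.3 scaled FPKM with a median of 20.1, and with GA from 16.96 to 25.8 with a median of 21.9. The highest and the lowest library were both in the GA group. Means were 20.6 ± 1.79 and 21.3 ± 3.56, with a log2 fold change of 0.03 (SE 0.12, 95% interval -0.22 to 0.28, exact permutation p = 0.801). Like those of Trp53, Mdm2, Bbc3 and Phlda3, this interval left out changes of 0.58 in either direction. The Y-linked term turned the estimate to -0.06. Of the Bax exon bases 12.2% overlap Gm45808 on the same strand.

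Bbc3 (chromosome 7, 16308393 to 16318205, plus strand), which encodes PUMA, the BH3-only protein that frees BAX, was the least abundant member, with 63 to 144 reads per library. It ranged with vehicle from 1.61 to 2.93 scaled FPKM with a median of 2.15, and with GA from 1.74 to 2.70 with a median of 2.35. The GA libraries fell inside the vehicle range. Means were 2.21 ± 0.504 and 2.28 ± 0.346, with a log2 fold change of 0.06 (SE 0.16, 95% interval -0.30 to 0.42, exact permutation p = 0.710), and among the 7 libraries that lacked Y-linked reads the estimate was -0.13.

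Phlda3 (chromosome 1, 135766119 to 135769136, plus strand), which limits survival signalling through AKT, ranged with vehicle from 75.8 to 111 scaled FPKM with a median of 98.8, and with GA from 83.8 to 161 with a median of 112. GA library 2, a gland library, was the highest at 161, and 4 of 6 GA libraries were above the vehicle median. Means were 96.2 ± 14.2 and 111 ± 28.1, with a log2 fold change of 0.19 (SE 0.16, 95% interval -0.17 to 0.55, exact permutation p = 0.284). Without GA library 2 the estimate was 0.08, and with the Y-linked term also 0.08.

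Sesn2 (chromosome 4, 132492032 to 132510501, minus strand), a leucine sensor that restrains mTORC1 and supports antioxidant defence, ranged with vehicle from 3.06 to 5.92 scaled FPKM with a median of 3.91, and with GA from 2.97 to 6.95 with a median of 3.44. In the GA group 5 libraries lay below the vehicle median, and library 6, at 6.95, was the highest of all 12. Means were 4.19 ± 1.13 and 3.95 ± 1.49, with a log2 fold change of -0.11 (SE 0.22, 95% interval -0.59 to 0.37, exact permutation p = 0.667). Without GA library 6 the estimate was -0.28 and without vehicle library 5 it was -0.000855, with the Y-linked term -0.38 and with the keratinocyte score 0.10.

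Other genes of the p53 network had estimates of both signs, as the members did. Of 38 other p53 targets 36 were tested, of which 0 were called, 19 had a positive and 17 a negative log2 fold change, and the median was 0.01. Their levels reached far above those of the members. Perp, a desmosome and apoptosis gene of epithelium, averaged 1557 scaled FPKM and Sfn, the epithelial 14-3-3 sigma, 1230, both being keratinocyte markers as well. At the other end, Trp53cor1 and Spata18 were below the filter. The smallest p belonged to Susd6, a membrane protein gene that p53 raises after damage, at 18.1 ± 1.54 with vehicle and 14.9 ± 1.903 with GA (log2 fold change -0.28, SE 0.10, exact permutation p = 0.0130), and 5 of 6 GA libraries fell below the median of vehicle. Plk2, a polo-like kinase gene, had a log2 fold change of -0.47 (SE 0.25), and Rrm2b, the p53-inducible ribonucleotide reductase subunit, 0.33 (SE 0.18), neither past an unadjusted p of 0.05. Of 20 p53 relatives and regulators, 10 had a positive and 10 a negative estimate, none with an unadjusted p below 0.05, and the epithelial relative Trp63 was at 42.6 ± 8.58 with vehicle and 38.2 ± 9.62 with GA.

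The kinases and adaptors that report damage to p53, with Atm, Atr, Chek1 and Chek2 among them, had estimates between -0.20 and 0.20 over 21 genes tested, 14 of them positive. Nucleotide excision repair is the pathway that removes bulky adducts such as those of 4NQO. Of its 29 genes 16 had a positive and 13 a negative estimate, with a median of 0.0078. Gtf2h4, a subunit of the TFIIH helicase complex, was at 3.37 ± 0.326 with vehicle and 4.06 ± 0.419 with GA (log2 fold change 0.26, SE 0.10, exact permutation p = 0.00649), and all 6 GA libraries exceeded the vehicle median. Ercc4, the XPF nuclease subunit that makes the 5′ incision, was at 2.88 ± 0.262 and 2.45 ± 0.287 (log2 fold change -0.23, SE 0.11, exact permutation p = 0.0303), with 6 of 6 GA libraries below. Neither gene was called over all genes tested, and the other TFIIH genes of the list had estimates between -0.13 (Gtf2h2) and 0.06 (Gtf2h5). The medians were 0.03 over 18 base excision repair genes, -0.0029 over 25 genes of homologous recombination and the Fanconi pathway, and 0.13 over 9 genes of translesion synthesis.

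Further lists held genes that act beside the members in their own pathways. Among 12 genes around the GADD45 and sestrin families and the ATF4 stress response, Ddit3, the transcription factor CHOP, was at 6.22 ± 1.89 with vehicle and 8.54 ± 1.58 with GA (log2 fold change 0.49, SE 0.20, exact permutation p = 0.0433), and all 6 GA libraries exceeded the vehicle median. Of the other sestrins, Sesn3 had a log2 fold change of -0.29 (SE 0.14) and Sesn1 of 0.02 (SE 0.17). Of 20 cell cycle inhibitors and genes of the RB pathway, Ccnd2, a D-type cyclin, was at 9.87 ± 1.58 and 12.1 ± 1.68 (log2 fold change 0.29, SE 0.13, exact permutation p = 0.0281). Of 12 BCL2 family genes 8 had a negative estimate, with a median of -0.08. Of the genes of mitosis that p21 lowers through the RB relatives and the DREAM complex, 18 of 18 had a negative estimate with a median of -0.27. Their mean log2 level had r = -0.66 with the muscle score over the 12 libraries, keratinocyte markers were lower with GA in 13 of 14 and fibroblast markers in 9 of 9, and the part of these in the mitosis list was not tested. Cdkn1a itself had r = 0.04 and rho = 0.02 with the mitosis score (permutation p = 0.909 and 0.956), and r = 0.12 without the 2 farthest libraries. Cdc20, the activator of the anaphase-promoting complex, was at 35.7 ± 8.37 with vehicle and 27.7 ± 6.16 with GA (log2 fold change -0.36, SE 0.18). No gene of the mitosis list had an unadjusted p below 0.05, and these genes move together from library to library, so 18 signs are not 18 separate observations. In all these lists 0 genes were called.

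**Figure D3:**
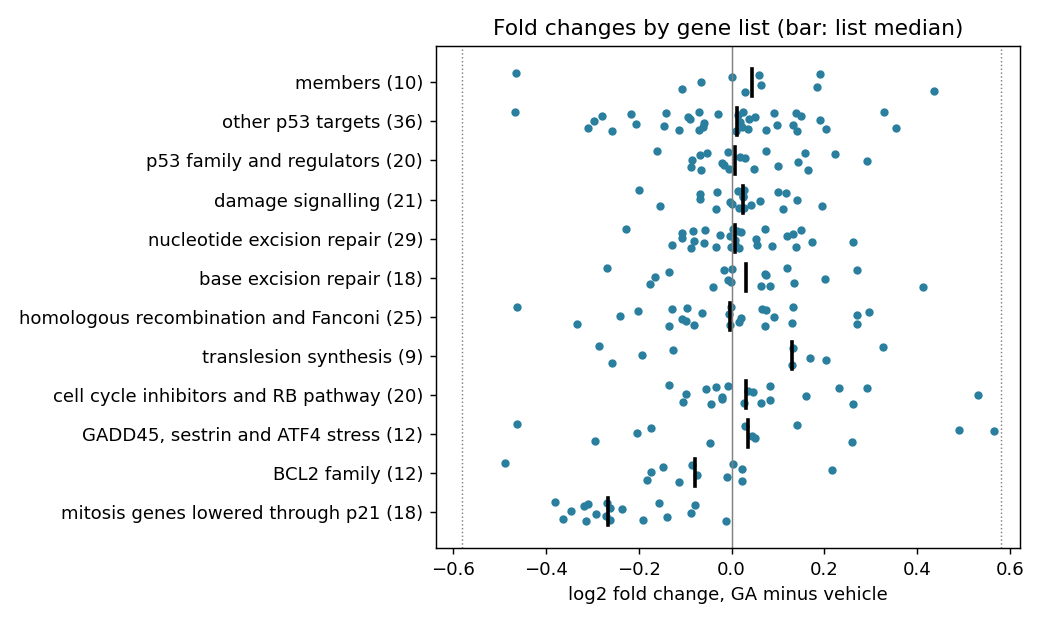
Log2 fold change of GA minus vehicle for every tested gene of 12 lists, with the number of genes in brackets and a bar at the list median. The medians of the members (0.04) and of the other p53 targets (0.01) lie near 0, the mitosis list lies wholly below 0 with a median of -0.27, and all points lie inside the dotted lines at 0.58.

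Genes raised by 1 transcription factor could be high and low in the same libraries, and the members were compared with each other over the 12 libraries. They did not share 1 pattern. Over the 45 pairs the median Pearson r was 0.000073, 23 pairs (51.1%) were positive, and r ran from -0.70 to 0.65. The 36 other p53 targets gave a median of 0.04 over 630 pairs, with 53.02% positive, and the 141902281 pairs of all tested genes had 49.95% above 0. Pairs within the mitosis list, measured in the same libraries, had a median r of 0.84, and all 153 were positive.

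**Figure D4:**
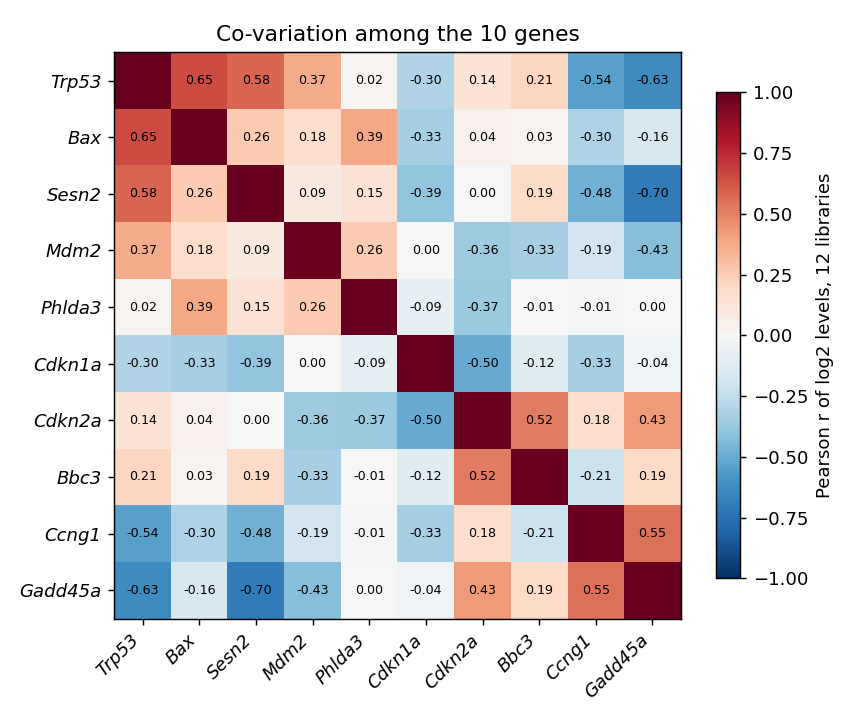
Pearson r between the log2 levels of each pair of the 10 genes over the 12 libraries, on a scale from -1 (blue) to 1 (red). The order of the genes was set by hand. At one end r is 0.65 for Trp53 with Bax, 0.58 for Trp53 with Sesn2 and 0.26 for Bax with Sesn2. At the other end it is 0.55 for Ccng1 with Gadd45a, and the lowest value is -0.70 for Gadd45a with Sesn2.

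Of the 45 pairs 0 had an adjusted p below 0.1 for Pearson r, where 4 had an unadjusted p below 0.05, and 5 had an adjusted p below 0.1 for Spearman rho (100000 permutations of the libraries, Benjamini-Hochberg over the 45 pairs). The share of all gene pairs with a rho as far from 0 was not tested, so this count does not set the members apart. The 5 pairs joined Trp53, Bax, Sesn2, Ccng1 and Gadd45a, and each had an adjusted permutation p of 0.0707 for rho. Trp53 and Bax were related with r = 0.65 (permutation p = 0.0220, adjusted 0.417) and rho = 0.76 (permutation p = 0.0066), and r was 0.72 without the 2 libraries farthest from the Trp53 median. Ccng1 and Gadd45a had r = 0.55 (permutation p = 0.0615, adjusted 0.507) and rho = 0.74 (permutation p = 0.0079), with r = 0.38 without the 2 farthest. The other 3 pairs were inverse. Gadd45a and Sesn2 had r = -0.70 (permutation p = 0.0158, adjusted 0.417) and rho = -0.76 (permutation p = 0.0061), and r = -0.47 without vehicle library 1 and GA library 6 and -0.43 without GA library 6 alone. Trp53 and Gadd45a had r = -0.63 (permutation p = 0.0278, adjusted 0.417) and rho = -0.78 (permutation p = 0.0040), and r = -0.57 without the 2 farthest and -0.32 without GA library 6 alone. Trp53 and Ccng1 had r = -0.54 (permutation p = 0.0676, adjusted 0.507) and rho = -0.76 (permutation p = 0.0057), and r = -0.56 without the 2 farthest. In the 9 libraries without gland tissue these 5 values of r were 0.68, 0.52, -0.79, -0.58 and -0.55, and in the 7 without Y-linked reads 0.45, 0.44, -0.76, -0.98 and -0.45, in the same order. Within the groups, Trp53 and Gadd45a had r = 0.14 over the 6 vehicle libraries and r = -0.93 over the 6 GA libraries, and the difference was not tested.

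The transcripts of p53, Mdm2 and p21 were weakly related to each other. The p53 protein, at whose level the loop mostly acts, was not measured, so these values do not describe the loop. Trp53 and Mdm2 had r = 0.37 and rho = 0.25 (permutation p = 0.231 and 0.431), and r = -0.27 without vehicle library 4 and GA library 6, so the positive value rested on these libraries. Cdkn1a and Mdm2 had r = 0.000073 and rho = -0.07 (permutation p = 1.00 and 0.835). The p21 and p53 transcripts had r = -0.30 and rho = -0.31 (permutation p = 0.346 and 0.334). Against the 36 other p53 targets, the median r of a member lay between -0.34 for Gadd45a and 0.18 for Mdm2, which was positive with 24 of 36.

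The 10 genes were also set against marker scores for 6 cell types and the mitosis list, which made 70 comparisons. Perp, Sfn and Trp63 counted in the keratinocyte score and were also on the lists of p53 targets and relatives. Their part in these comparisons was not tested. The keratinocyte and muscle scores were themselves inversely related (r = -0.88), and the part of this in the pairs above was not tested. Ccng1 rose with the skeletal muscle score, with r = 0.88 (permutation p = 0.00026, adjusted over the 70 comparisons 0.0182) and rho = 0.95 (permutation p = 1e-05, the smallest that the resamples can give, adjusted 0.00070). Without vehicle libraries 1 and 3, the farthest from the median score, r was 0.71. It was 0.89 in the 9 libraries without gland tissue, 0.67 in the 7 without Y-linked reads and 0.90 after group means were subtracted. Gadd45a was related to the same score with r = 0.79 (permutation p = 0.00227, adjusted 0.0397) and rho = 0.80 (permutation p = 0.0029, adjusted 0.0406), and r was 0.82 without the 2 farthest libraries, 0.80 without the gland libraries and 0.88 without the Y-linked ones. With the keratinocyte score both were inverse, Gadd45a with r = -0.78 (permutation p = 0.00070, adjusted 0.0245) and rho = -0.85 (permutation p = 0.00084), and Ccng1 with r = -0.80 (permutation p = 0.00157, adjusted 0.0366) and rho = -0.82 (permutation p = 0.00172). Without the 2 libraries farthest from the median keratinocyte score, these values of r were -0.66 and -0.75.

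Trp53 and Sesn2 stood on the other side of this balance, past the limit for rho but not for r. With the keratinocyte score, Sesn2 had r = 0.69 (permutation p = 0.0126, adjusted 0.176) and rho = 0.78 (permutation p = 0.00422, adjusted 0.0492), and Trp53 had r = 0.66 (permutation p = 0.0189, adjusted 0.221) and rho = 0.76 (permutation p = 0.0063, adjusted 0.0630). Without the 2 farthest libraries r was 0.78 for Sesn2 and 0.77 for Trp53. Trp53 was inverse to the muscle score with r = -0.56 (permutation p = 0.0587, adjusted 0.373) and rho = -0.81 (permutation p = 0.00249, adjusted 0.0406), and r was -0.84 without the 2 farthest. Ccng1 and the mitosis score, with r = -0.58 (permutation p = 0.0488, adjusted 0.343) and rho = -0.72 (permutation p = 0.0106, adjusted 0.0928), made up the 8 of 70 comparisons past the limit for rho, of which 4 also passed for r. The share of all tested genes that would pass the same limits was not tested. These counts therefore do not set the members apart from other genes. Within the groups of 6 libraries, r with the keratinocyte score was 0.32 with vehicle and 0.95 with GA for Trp53, and 0.56 and 0.81 for Sesn2, and these differences were not tested. Vehicle library 1 and GA library 6 had the highest keratinocyte scores, 9.89 and 9.77, and the lowest muscle scores, 5.64 and 6.33. Both had low Gadd45a. Trp53 and Sesn2 were highest in GA library 6, at 25.96 and 6.95 scaled FPKM, but were at 14.9 and 4.19 in vehicle library 1. Cdkn1a, Cdkn2a, Mdm2, Bbc3, Bax and Phlda3 had no comparison with a marker score past these limits.

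**Figure D5:**
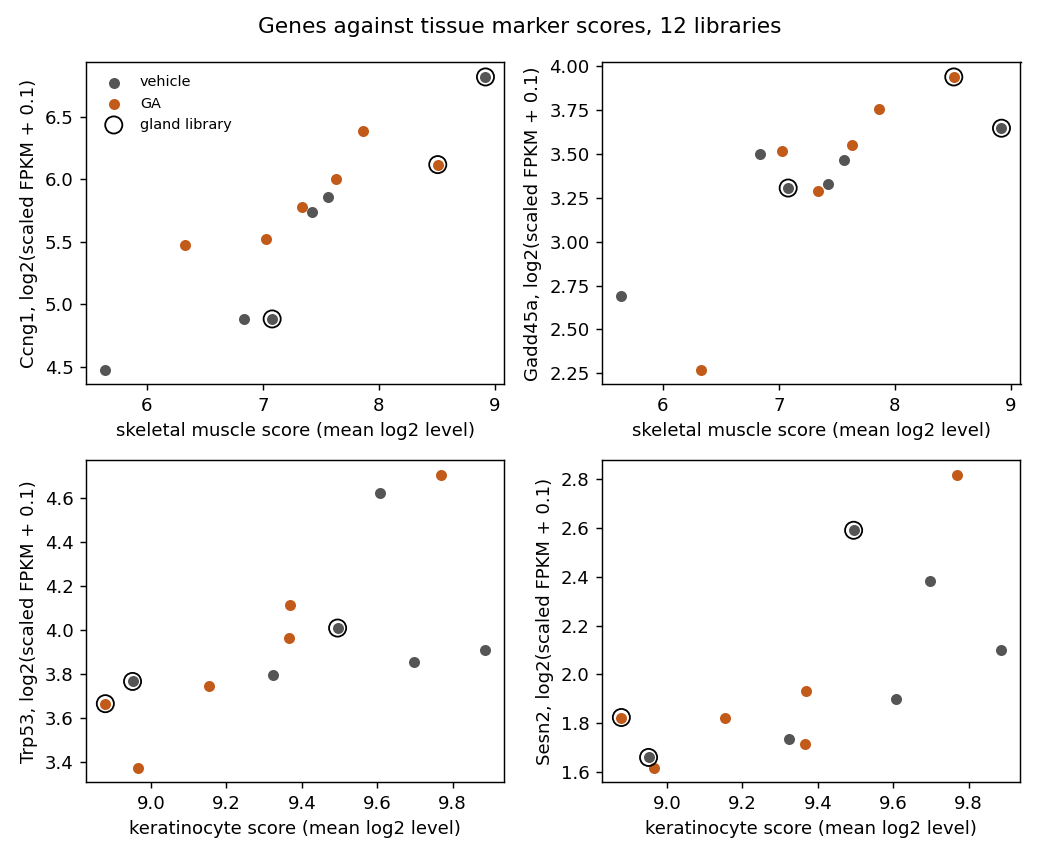
Log2 level of Ccng1 and Gadd45a against the skeletal muscle score and of Trp53 and Sesn2 against the keratinocyte score, 1 point per library, with vehicle in grey, GA in orange and a ring around the 3 gland libraries. Ccng1 (r = 0.88) and Gadd45a (r = 0.79) increase with the muscle score, Trp53 (r = 0.66) and Sesn2 (r = 0.69) increase with the keratinocyte score over the 12 libraries. For Trp53 r was 0.32 within vehicle and 0.95 within GA, a difference that was not tested.

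The genes whose levels followed each member most closely were sought among 12152 others that averaged 1 FPKM or more, as a description over the 12 libraries, which share their tissue make-up. For Trp53 they were Nup155, a nuclear pore gene, with r = 0.98, the helicase gene Ddx11 (0.96) and Smo, the Hedgehog signal transducer (0.96). For Cdkn1a they were Cldn1, a tight junction claudin (0.94), Grk2 (0.93) and Ankrd35 (0.93). None of these is a gene of the p53 lists. Ccng1 was closest to Dym (0.98), Tmem143 (0.97) and the lactate dehydrogenase gene Ldhd (0.97), and Gadd45a to Use1, Rex1bd and Cd59a (0.93 to 0.94). Sesn2 was closest to Ddx20 (0.95), the kinase gene Nuak2 (0.94) and Ddit4 (0.93), an mTORC1 inhibitor that is itself on the list of p53 targets. Bbc3 was near Retreg2 (0.88), the p53 ubiquitin ligase gene Rchy1 (0.84) and Rpusd4 (0.79). For Cdkn2a the nearest was the interferon gamma receptor gene Ifngr1 (0.90), for Bax Trim11 (0.93), for Phlda3 Scamp3 (0.93) and for Mdm2, the member with the smallest spread, Gm21092 (0.87).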

How the data were processed

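Tongue RNA from 12 libraries (6 vehicle, 6 GA) was prepared with a SMARTer mRNA kit. The authors used HISAT2 for alignment to mm10 and featureCounts for uniquely mapped reads, per their methods, and deposited FPKM values, in which the reads of a gene are divided by its length and the library total. Versions, the annotation and the strand setting are not given in the sources used here. Of 55463 rows per library, 22965 (41.4%) had no gene name and were left out, with 16.2% to 25.5% of the summed FPKM. Totals were recovered from low FPKM values and GENCODE M21 exon lengths, and 97.6% to 98.3% of low values came out whole within 0.02 reads. Positions are those of GENCODE M21 on GRCm38, of which mm10 is the browser name.

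FPKM scaling used trimmed means of log ratios (30% of ratios and 5% of levels trimmed, factors 0.914 to 1.08). Genes that averaged 0.1 FPKM or more were compared with limma 3.58.1 (R 4.3.3, eBayes with trend) on log2(scaled FPKM + 0.1), without covariates, with Benjamini-Hochberg adjustment over all 16847 genes. Fold changes are on this scale, which understates the change of low genes. Single genes were also compared with an exact permutation test over all 924 assignments of the libraries to groups (smallest p 0.00216). Scores are the mean log2 level of a marker list. Correlations and their permutation p were computed with numpy 2.4.6, with ranks from scipy 1.17.1, on Python 3.11.15. The fitting steps were tested on simulated data. The members and all lists were chosen with earlier results of these data known. Named genes were the members, up to 3 genes of each list with the smallest p, and the 3 genes closest to each member by Pearson r. Other genes named from the lists were chosen after their values were seen. H2afx and Muc19, on the lists, had no row. Alternatives were other pseudocounts, filters and scalings, voom on recovered reads, covariates for Y-linked reads and marker scores, and libraries left out. Those of the marker score comparisons were chosen after seeing the data. All 12 libraries were used.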

Additional observations from a re-analysis of the deposited data

Results flagged for a closer look

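In 2 of the 20 groups of 6 values (10 genes, vehicle and GA), 1 library lay apart from the others by Dixon's criterion, where chance flags about 1 group in 20. For Trp53 it was vehicle library 4, at 24.5 scaled FPKM against 13.5 to 16.0 in the other vehicle libraries, and its gap made up 0.775 of the range of the group. For Sesn2 it was GA library 6, at 6.95 scaled FPKM against 2.97 to 3.72 in the other GA libraries, with a gap of 0.813 of the range. GA library 6 also had the highest Trp53 and Mdm2 levels of the 12, at 25.96 and 10.03 scaled FPKM, and the lowest Gadd45a level, at 4.73. The log2 fold changes without these libraries were 0.06 for Trp53 and -0.28 for Sesn2.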

How the results depend on the processing

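The number of members called was 0 in every alternative run, voom on recovered reads included. Looser limits were met in some runs. Without vehicle library 1 Cdkn2a had an unadjusted limma p of 0.0319, as 429 of 16847 genes were below 0.05. Without vehicle library 3 Ccng1 had 0.0207, with 806 genes below 0.05. Without the gland libraries Ccng1 had a log2 fold change of 0.59 and an unadjusted limma p of 0.0925, and 549 genes met the limit of 0.1 with the fold limit. The number of genes called over the whole table was 0 to 1 when single libraries were left out. The 1 gene, without vehicle library 4, was Gm25290, which had 0 to 5 reads per library. In the 7 libraries without Y-linked reads, 2 genes were called, Gm25290 and Gm23390. With all 12 libraries and no covariate, an unadjusted p below 0.05 was met by 364 genes, and one below 0.1 with the fold limit by 328.

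Estimates near 0 changed sign. In the libraries without Y-linked reads the log2 fold change was 0.11 for Trp53, -0.13 for Bbc3 and -0.0731 for Gadd45a. With the Y-linked term it was -0.0063 for Bbc3 and -0.0608 for Bax. With the keratinocyte term it was 0.13 for Trp53, -0.23 for Gadd45a and 0.10 for Sesn2, and with the muscle term -0.0220 for Gadd45a. Without the gland libraries it was -0.0049 for Mdm2. With 1 library left out it ranged from -0.22 to 0.0612 for Trp53, -0.0374 to 0.0432 for Mdm2, -0.0215 to 0.14 for Bbc3, -0.0292 to 0.0911 for Bax and -0.0633 to 0.29 for Gadd45a. For Sesn2 it ranged from -0.28 to -0.000855. The estimates of Cdkn1a, Cdkn2a, Ccng1 and Phlda3 kept their sign in all 26 alternatives, but that of Cdkn1a was 0.0250 without the gland libraries and ranged from 0.0876 to 0.33 with 1 library left out.

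The median correlation among members was 0.107 without scaling. The r of Ccng1 was 0.666 with the muscle and -0.527 with the keratinocyte score in the libraries without Y-linked reads, and 0.714 with the muscle score without the 2 farthest libraries, where Gadd45a had -0.657 with the keratinocyte score. The cause of these shifts was not tested.

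Equal replicate numbers did not pair the libraries. Correlations of deviations from group means ran from -0.372 to 0.0798, and 0 of 6 vehicle libraries were closest to their own number. With the replicate block 0 genes were called and 244 had an unadjusted p below 0.05.

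With 6 libraries per group the 95% interval for Cdkn2a ran from -1.52 to 0.59.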
